A study of Mus musculus with 16 samples.

Results

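The 40 genes described here are a list of cell cycle genes, 16 that act in DNA replication (S phase) and 24 that act in mitosis. They were taken by symbol from the 23159 gene symbols of a count table of mouse lavage macrophages. The rule itself used no measured value, but the members were chosen with earlier results of these data known. All 40 were in the table, and all 40 were among the 12455 genes that passed the filter on low counts. Macrophages were isolated from bronchoalveolar lavage fluid, a wash of the airways, and their messenger RNA was sequenced. The mice were wild type (WT) or lacked Toll-like receptor 3 (TLR3-KO), an endosomal sensor of double-stranded RNA. In each genotype a control group was set beside a group that the titles call injured. Pneumonia was started by placing 500 CFU of the bacterium Klebsiella pneumoniae, carried in 30 µl, in the hypopharynx, per the label protocols. The same protocols name saline as the other inoculum, but the control libraries have none as their treatment. Each of the 4 groups held 4 libraries, 16 in all, although the series text counts 15. Nothing in the sources used here gives the age of the mice, the time after infection or the kind of knockout allele.

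Dividing cells switch on these genes in waves. At the entry into S phase, E2F transcription factors raise the genes for the replication helicase, for deoxynucleotide synthesis and for cyclin E. Later, a complex of MuvB proteins with B-Myb and then FoxM1, which binds an element called the CHR (cell cycle genes homology region), raises the genes for mitotic kinases, spindle motors and the machinery of mitotic exit. Macrophages resident in the alveoli are long-lived cells that can renew themselves by local division.

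Total counts per library lay between 29667102 and 59640251, and the members held between 141 counts (Cdc6) and 9125 counts (Pcna) in a library. Levels are given in CPM, the count of a gene scaled by the total of its library, and are listed in the order of replicates 1 to 4. No label ties a library to its own mouse, and p-values therefore measure only the spread between libraries, which may be technical. Tlr3 followed the genotype labels in all libraries. It was counted at 2.18 to 4.53 CPM in WT and at 0.274 to 0.717 CPM in TLR3-KO libraries. The series title speaks of male mice, but TLR3-KO controls 1 to 3 held Xist, the RNA of a silenced X chromosome, at 42.3, 31.6 and 20.3 CPM. In every other library Xist was at most 0.23 CPM. The Y-linked genes Ddx3y, Eif2s3y, Kdm5d and Uty summed to 0.758, 1.16 and 23.2 CPM in TLR3-KO controls 1 to 3. In the other libraries they summed to 163 to 235 CPM, so TLR3-KO control 3 held RNA of both kinds. Of 14 macrophage markers 12 were in the table, and their summed level was 10990 to 13560 CPM. T cell markers summed to 1.12 to 14.4 CPM, with the highest sums in TLR3-KO controls 3 and 4 (12.9 and 14.4 CPM). Of the neutrophil granule genes, Mpo, Elane and Camp were at or near 0 in all groups, whereas Ltf reached 4.83 CPM and Mmp8 lay between 16.7 and 51.8 CPM.

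The promoters of the members were searched for the words of these regulators. Promoter windows of 300 bases, 250 before and 50 after the start, came from RefSeq (GRCm38.p6) and were found for 32 members by symbol (13 S phase genes with 15 windows and 19 mitotic genes with 20 windows). The CHR was searched as TTTGAA or TTCGAA, and the E2F element as TTCCCGC or TTCGCGC or TTGCCGC or TTGGCGC. The CCAAT box, which NF-Y binds, was searched as CCAAT, and all words were searched on both strands. The last E2F word shares letters with a CCAAT box on the other strand, so these elements can overlap, and E2F words can overlap each other. The sequences below show, for 3 mitotic and 2 S phase genes, where the words lie in the 120 bases from 130 to 11 before the start. Capitals mark the words on either strand, and each sequence is written 5′ to 3′ on the strand of its gene.
Cdc20, chr4:118437354-118437473, minus strand: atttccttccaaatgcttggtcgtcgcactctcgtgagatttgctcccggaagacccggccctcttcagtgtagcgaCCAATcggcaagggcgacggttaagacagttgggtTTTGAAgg
Kif11, chr19:37376252-37376371, plus strand: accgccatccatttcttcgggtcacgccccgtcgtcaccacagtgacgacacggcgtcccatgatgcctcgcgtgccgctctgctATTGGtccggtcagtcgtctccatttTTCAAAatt
Top2a, chr11:99024200-99024319, minus strand: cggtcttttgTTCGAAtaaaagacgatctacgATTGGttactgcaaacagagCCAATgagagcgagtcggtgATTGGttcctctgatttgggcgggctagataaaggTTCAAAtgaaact
Mcm6, chr1:128359716-128359835, minus strand: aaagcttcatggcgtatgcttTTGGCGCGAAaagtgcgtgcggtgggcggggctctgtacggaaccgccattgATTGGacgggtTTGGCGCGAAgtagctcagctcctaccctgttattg
Rrm1, chr7:102441565-102441684, plus strand: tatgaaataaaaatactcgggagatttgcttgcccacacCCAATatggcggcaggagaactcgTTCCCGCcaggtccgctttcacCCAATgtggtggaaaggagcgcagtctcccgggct

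In the 3 mitotic promoters shown, a CHR word lay 18, 19 and 23 bases before the start, downstream of 1 or more CCAAT boxes, and Top2a had a further CHR word 120 bases before the start. In Mcm6 2 joined E2F words formed the same run of letters at 2 places, around 109 and 46 bases before the start. In Rrm1 a single E2F word lay 67 bases before the start, between 2 CCAAT boxes. A CHR word was in 15 of 20 mitotic windows (75.0%) and in 2 of 15 S phase windows (13.3%), against 14.0% of the 11396 windows of all genes tested and 19.2% of all 32851 windows. An E2F word was in 10 of 15 S phase windows (66.7%) and in 3 of 20 mitotic windows (15.0%), against 16.3% and 9.6%. A CCAAT box was in 11 of 15 S phase (73.3%) and 17 of 20 mitotic windows (85.0%), against 37.8% and 37.4%. In the 250 bases before the start alone, 45.0% of mitotic windows held a CHR word, against 12.4% over the genes tested, so a part of the CHR matches lay behind the annotated start. Some genes have more than 1 window, and a match describes letters, not binding.

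**Figure D1:**
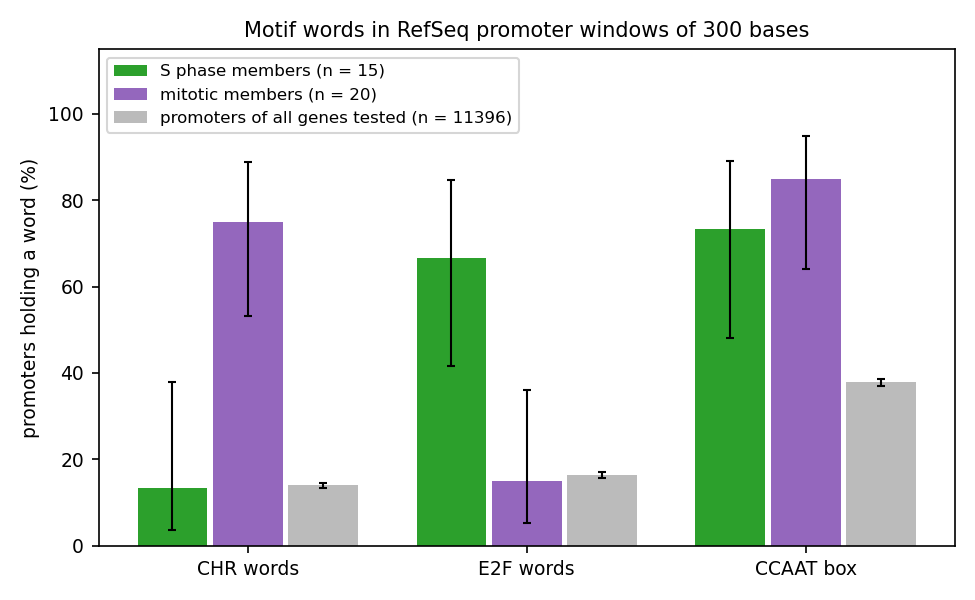
Percent of RefSeq promoter windows (y axis) that hold a CHR word, an E2F word or a CCAAT box (x axis), for S phase members (green), mitotic members (purple) and all genes tested (grey). Bars start at 0 and error bars are 95% Wilson intervals, which cover counting error only; CHR words stand at 75.0% of mitotic windows and E2F words at 66.7% of S phase windows.

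Both sets were highest in the macrophages of TLR3-KO mice with pneumonia. The mean of log2(CPM + 0.5) over the 16 S phase genes was 5.36, 5.56, 5.59 and 5.31 in these libraries, and the next highest value was 5.21 in WT injured library 4. Over the 24 mitotic genes the mean was 5.04, 5.41, 5.33 and 4.99, and the next highest value was 4.98 in TLR3-KO control 4. In CPM the 4 libraries therefore stood above the other 12 for both sets, by a small margin in the mitotic set. The mitotic order depends on the scaling of the libraries. The tests used TMM scaling, which divides the levels of a library by a factor. The factor was 0.903 in WT control 2 (mitotic mean 4.85) and 1.053 in TLR3-KO injured library 4. After it, WT control 2 would lie above TLR3-KO injured library 4 in the mitotic set. In the other groups the S phase mean was 4.77 ± 0.12 in WT controls, 4.84 ± 0.39 in WT injured and 4.89 ± 0.22 in TLR3-KO controls, against 5.46 ± 0.14 in TLR3-KO injured (SD, n = 4 each). The mitotic mean was 4.67 ± 0.18, 4.39 ± 0.35, 4.64 ± 0.30 and 5.19 ± 0.21 in the same order. As geometric means these are 26.7, 28.2, 29.1 and 43.4 CPM for S phase genes and 25, 20.4, 24.4 and 36.1 CPM for mitotic genes. In RNA from many cells, fewer dividing cells and less RNA of these genes per cell cannot be told apart.

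**Figure D2:**
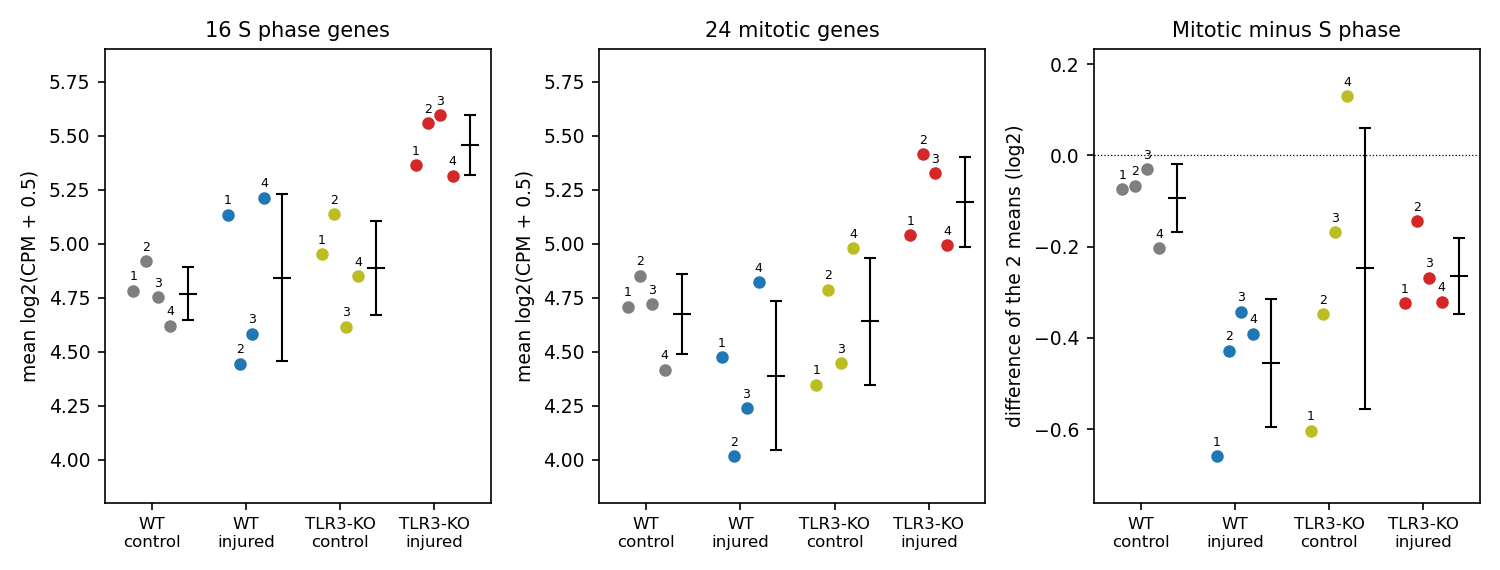
Mean log2(CPM + 0.5) of the 16 S phase genes (left), of the 24 mitotic genes (middle) and their difference (right) in each library, by group on the x axis. Points are libraries with their replicate number and bars are the group mean ± SD (n = 4). In CPM without TMM scaling, the 4 TLR3-KO injured libraries (5.31 to 5.59 and 4.99 to 5.41) lie above all others in the left and middle panels.

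The balance of the sets differed between libraries. Mitotic minus S phase means were -0.07, -0.07, -0.03 and -0.20 in WT controls and -0.66, -0.43, -0.34 and -0.39 in WT injured libraries. These groups did not overlap. TLR3-KO controls ranged from -0.60 to 0.13, and TLR3-KO injured libraries lay between -0.32 and -0.14, below the WT controls 1 to 3. WT injured library 1 had the largest gap, with an S phase mean of 5.13 beside a mitotic mean of 4.47. No test was made on these means, since the members were chosen with earlier results known.

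**Figure D3:**
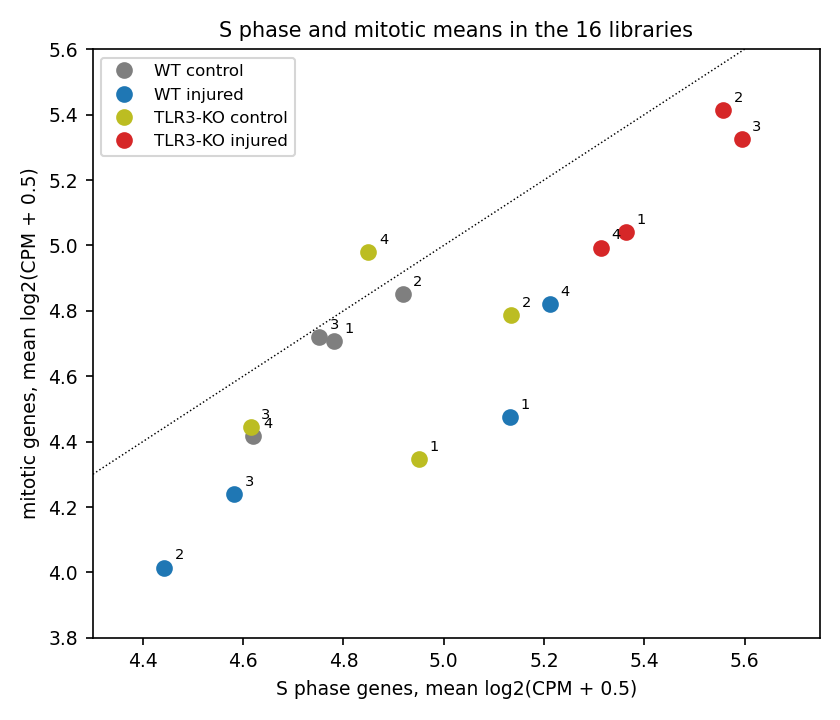
Mitotic mean (y axis) against S phase mean (x axis), both as mean log2(CPM + 0.5), for the 16 libraries coloured by group and numbered by replicate. The dotted line marks equal means; 15 libraries lie below it, and TLR3-KO control 4 lies above it with a difference of 0.13.

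The extremes of the members fell on few libraries. TLR3-KO injured library 2 was the highest of all 16 libraries for 5 S phase and 17 mitotic genes, and TLR3-KO injured library 3 for 6 S phase and 6 mitotic genes. WT injured library 2 was the lowest for 6 S phase and 15 mitotic genes. In CPM all 4 TLR3-KO injured libraries stood above the other 12 for 2 S phase genes (Mcm5, Rrm2) and 9 mitotic genes (Ccna2, Ccnb1, Ccnb2, Plk1, Kif20a, Kif23, Nusap1, Foxm1, Mybl2), where 2.96% of all genes tested did so. These counts depend on the scaling too. The TMM factors were 0.896 and 0.903 in WT controls 1 and 2 and 1.053 in TLR3-KO injured library 4. After TMM scaling the order would be lost for some mitotic genes, among them Ccnb1, Plk1, Kif23, Nusap1 and Foxm1. Per kilobase of the longest transcript (GENCODE M21, mm10), the members spanned 0.628 CPM per kb (Cenpf, a centromere protein) to 106 CPM per kb (Pcna, the sliding clamp of DNA polymerases) in WT controls. The next highest was Bub1b, a checkpoint kinase, at 25.7 CPM per kb, so Pcna stood apart from the rest in level.

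The first comparison asks how pneumonia changed these genes in WT macrophages. Mitotic genes were lower on the whole after pneumonia, S phase genes were not shifted, and no member passed the test. Of 24 mitotic genes 23 had a negative log2 fold change, with a median of -0.43, and of 16 S phase genes 9 had a positive one, with a median of 0.03, beside a median of 0.01 over all genes tested. No member was called at an adjusted p under 0.05 in edgeR's quasi-likelihood test, where 0% of all genes were called. At an unadjusted p under 0.05, 8 mitotic genes and 0 S phase genes were lower, where 4.44% of all genes were. DESeq2, which called 1.45% of all genes, and limma voom, which called 0%, also called 0 members. No member separated the groups in full, upward (3.83% of all genes) or downward (0.682%).

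Among the spindle genes, Kif20a, a kinesin of the central spindle needed for cytokinesis, had the lowest p. Its level was 24.01, 26.3, 30.6 and 22.3 CPM in the WT controls, and 16.1, 13.5, 15.97 and 26.7 CPM in the WT injured libraries. WT injured library 4 reached the control range while the other 3 lay below it. The log2 fold change was -0.62 (SE 0.21, adjusted p = 0.288 in edgeR). Tpx2, which targets Aurora A to the spindle, had 41.4, 44.2, 34.7 and 35.7 CPM in controls and 28.4, 26.2, 26.2 and 38.9 CPM in injured libraries (log2 fold change -0.50, SE 0.17, edgeR adjusted p = 0.290). Here too library 4 of the injured group was the exception.

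For Cdc20, the activator of the anaphase-promoting complex, injured libraries 1 and 4 lay in the control range and libraries 2 and 3 below it. It was at 22.5, 26.98, 32.6 and 18.7 CPM in the WT controls and at 19.7, 12.8, 14.1 and 23.1 CPM in WT injured libraries (log2 fold change -0.64, SE 0.22, edgeR adjusted p = 0.301). Of the mitotic kinases and their partners, Plk1, the polo-like kinase of mitotic entry, was at 20.8, 20.6, 17.5 and 12.8 CPM in controls and at 11.1, 7.54, 9.35 and 19.3 CPM after pneumonia. Its log2 fold change of -0.72 (SE 0.26, edgeR adjusted p = 0.326) was the most negative of all members. Ccnb1, cyclin B1, was at 48.0, 49.8, 48.9 and 33.7 CPM and at 37.3, 22.2, 27.5 and 44.7 CPM (log2 fold change -0.57, edgeR adjusted p = 0.323). The groups overlapped for each of these genes. Mybl2, which encodes B-Myb, was the mitotic member with a positive value (0.04).

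S phase genes varied between libraries within both groups. Mcm3, a helicase subunit, had 74.0, 79.5, 51.6 and 54.2 CPM in WT controls and 57.5, 43.3, 47.9 and 78.3 CPM in WT injured libraries (log2 fold change -0.31, edgeR adjusted p = 0.642). Rrm1, the large subunit of ribonucleotide reductase, had 79.2, 88.6, 66.0 and 59.0 CPM and 64.8, 48.3, 54.1 and 93.0 CPM (log2 fold change -0.29, edgeR adjusted p = 0.651). Both had the opposite sign against controls 3 and 4 alone (0.061 and 0.012). Gins2, a subunit of the GINS complex of the active helicase, had 9.78, 9.76, 14.7 and 12.6 CPM in controls. After pneumonia it had 21.5 CPM in library 1 and 11.7, 12.2 and 11.8 CPM in libraries 2 to 4, and its log2 fold change of 0.19 (edgeR adjusted p = 0.760) turned to -0.081 without library 1. Libraries 1 and 4 of the injured group were high for Rrm2, the small subunit of the reductase (76.2, 34.0, 40.5 and 76.6 CPM), beside 61.7, 66.9, 50.4 and 44.5 CPM in controls.

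RNA of other cells also differed among the WT libraries. Of 11 neutrophil markers 10 were in the table, and their summed level was 81.9, 190, 276 and 113 CPM in WT injured libraries 1 to 4 and 47.1 to 84.4 CPM in WT controls. The libraries with the higher sums, 2 and 3, were those with the lower S phase means (4.44 and 4.58, against 5.13 and 5.21). Mpo and Elane were at 0 in all WT injured libraries, so the sum rested mostly on Csf3r, S100a8, S100a9 and Mmp8. The 10 erythroid markers summed to 334 to 712 CPM in WT injured and 12.6 to 155 CPM in WT control libraries. The part of these cells in the mitotic and S phase values was not tested.

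**Figure D4:**
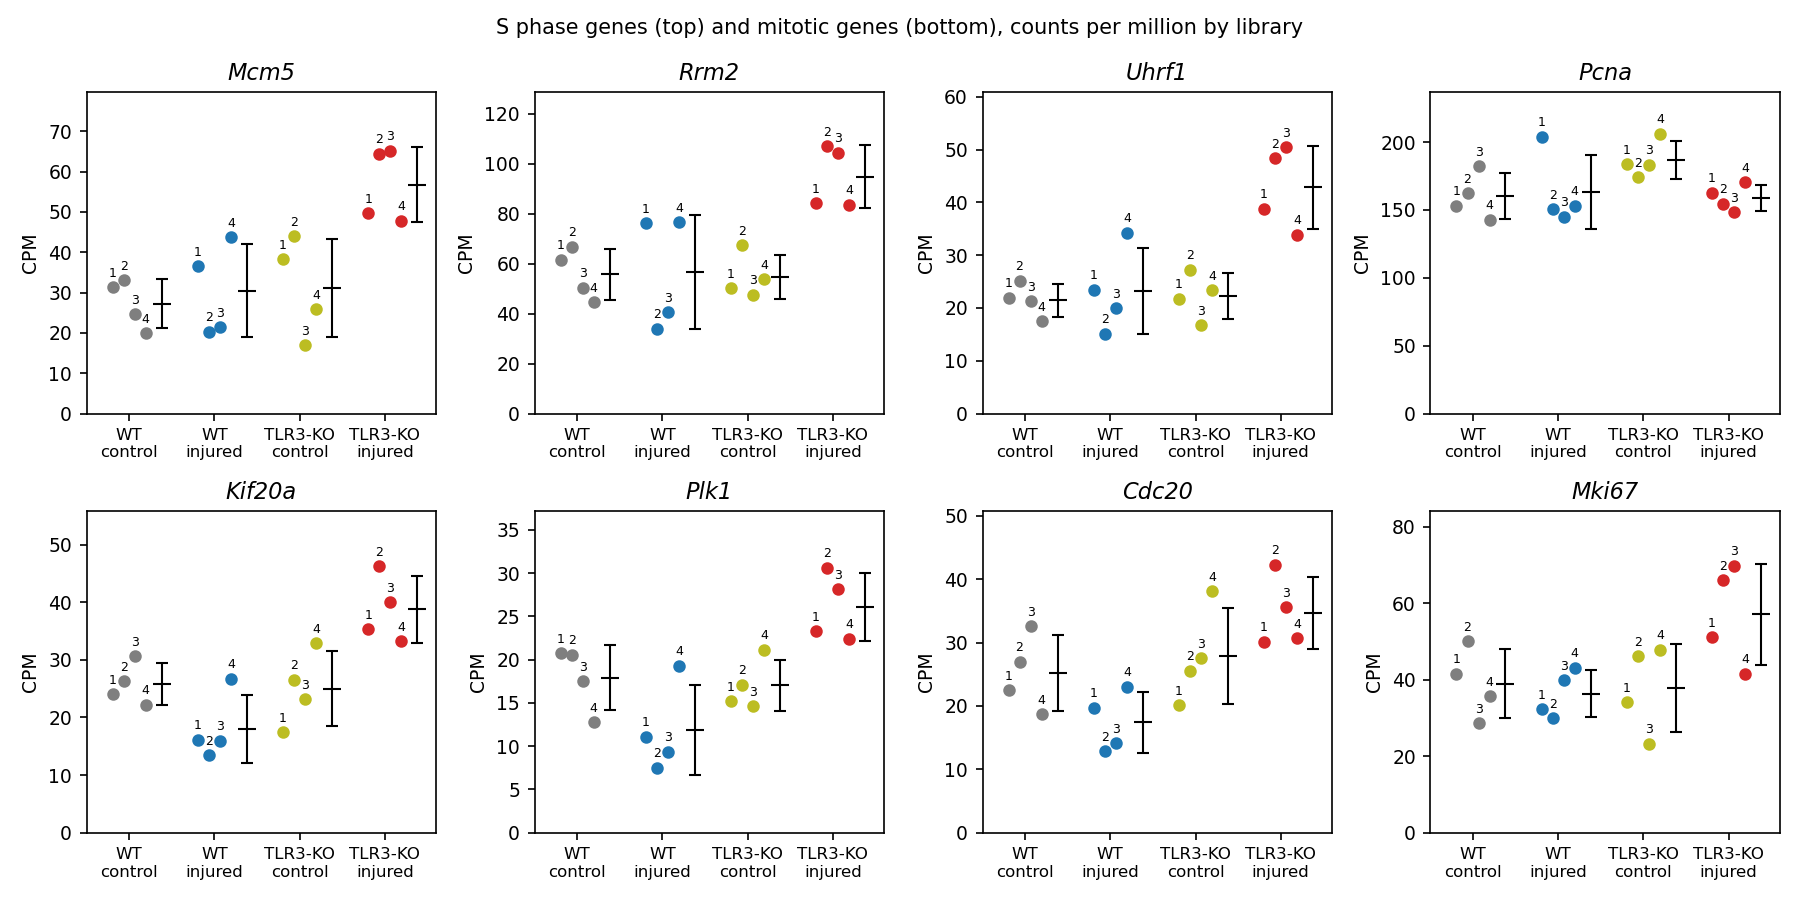
CPM (y axes, from 0) by group (x axes) for 4 S phase genes (top row, Mcm5, Rrm2, Uhrf1, Pcna) and 4 mitotic genes (bottom row, Kif20a, Plk1, Cdc20, Mki67), with points for libraries numbered by replicate and bars for the mean ± SD (n = 4). TLR3-KO injured libraries are the highest group for all but Pcna, which is at 149 to 170 CPM there and at 174 to 206 CPM in TLR3-KO controls.

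The second comparison is the same one in TLR3-KO macrophages. Members of both sets were higher after pneumonia in most libraries, by a median of 0.67 on the log2 scale for S phase genes and 0.51 for mitotic genes, beside -0.01 over all genes. Positive values were found for 14 of 16 S phase genes and all 24 mitotic genes. No member passed the adjusted threshold in edgeR, where 1.09% of all genes were called (136 genes). At an unadjusted p under 0.05, 10 S phase and 15 mitotic genes were higher, where 12.1% of all genes were, and 1 S phase gene was lower, where 11.9% were. The groups did not overlap in CPM for 9 S phase and 12 mitotic genes that were higher (11.2% of all genes) and for 1 S phase gene that was lower (3.05%). The TMM factors were 0.928 and 0.983 in TLR3-KO controls 1 and 2 and 1.053 in TLR3-KO injured library 4. After TMM scaling some of the higher genes, among them Mcm2, Mcm6 and E2f1, would overlap. DESeq2 called 4 members (Cdc6, Ccne2, Uhrf1 and Bub1), 10% of the members beside 8.28% of all genes, and limma voom called 0. The number of genes called by edgeR in this comparison ran from 0 without TLR3-KO injured library 3 to 1238 without TLR3-KO control 2, and was 11 with the replicate block.

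Of the genes of S phase entry, Uhrf1, which carries DNA methylation over to the new strand, came closest to the threshold. It was at 21.8, 27.3, 16.8 and 23.4 CPM in the TLR3-KO controls and at 38.8, 48.4, 50.5 and 33.9 CPM after pneumonia, with no overlap. The difference was 1.83-fold (log2 0.87, SE 0.23, edgeR adjusted p = 0.0666). Ccne2, cyclin E2, was at 3.82, 6.21, 5.61 and 6.37 CPM and at 8.16, 9.64, 10.9 and 8.995 CPM (1.65-fold, SE 0.22 on the log2 scale, edgeR adjusted p = 0.0938). Ccne1, cyclin E1, was at 7.68, 7.62, 7.53 and 11.4 CPM and at 8.96, 10.4, 11.5 and 12.9 CPM (log2 0.29, edgeR adjusted p = 0.372), so that only TLR3-KO control 4 reached the injured range. E2f1, the founding E2F factor, was at 49.4, 49.5, 46.5 and 42.4 CPM and at 54.0, 50.6, 52.2 and 51.9 CPM. The E2f1 groups did not overlap in CPM, but the difference after scaling was small (log2 0.08, edgeR adjusted p = 0.740).

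Cdc6, which loads the helicase at origins, was at 3.82, 5.28, 4.66 and 4.32 CPM in the TLR3-KO controls and at 7.03, 8.18, 9.47 and 6.54 CPM in injured libraries (1.65-fold, log2 SE 0.20, edgeR adjusted p = 0.0761). The 6 helicase subunits Mcm2 to Mcm7 had positive values of 0.40 to 0.83, and 5 of them had an unadjusted p under 0.05. Mcm2 was at 44.7, 48.8, 17.2 and 25.9 CPM in controls and at 55.5, 69.1, 71.5 and 49.0 CPM after pneumonia, where the lowest injured library only just exceeded control 2 (log2 0.76, SE 0.34, edgeR adjusted p = 0.188). Mcm5 was at 38.3, 43.9, 17.0 and 25.8 CPM and at 49.8, 64.5, 65.2 and 47.8 CPM (log2 0.78, SE 0.31, edgeR adjusted p = 0.158). For both genes the 2 lowest controls were 3 and 4.

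The genes of nucleotide supply differed among themselves. Rrm2 was at 50.3, 67.3, 47.6 and 53.9 CPM in the TLR3-KO controls and at 84.2, 107, 104.5 and 83.6 CPM after pneumonia, a 1.65-fold difference without overlap (log2 SE 0.25, edgeR adjusted p = 0.116). Rrm1 was at 65.8, 85.6, 50.1 and 62.6 CPM and at 98.2, 123, 121 and 86.5 CPM (log2 0.62, SE 0.23, edgeR adjusted p = 0.128). Tyms, thymidylate synthase, was at 19.0, 17.0, 14.8 and 16.6 CPM and at 19.1, 20.6, 18.8 and 18.6 CPM, which overlap (log2 0.12, edgeR adjusted p = 0.659). Pcna went the other way, at 184, 174, 183 and 206 CPM in controls and 163, 155, 149 and 170 CPM after pneumonia. Its groups did not overlap, and its log2 fold change was -0.30 (SE 0.12, edgeR adjusted p = 0.164).

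On the mitotic side, Bub1, a kinase of the spindle checkpoint, was at 9.29, 17.8, 11.3 and 17.0 CPM in the TLR3-KO controls and at 19.97, 29.5, 27.4 and 20.2 CPM after pneumonia. The groups did not overlap, and the difference was 1.68-fold (log2 SE 0.21, edgeR adjusted p = 0.0784). Foxm1 was at 14.3, 19.8, 13.01 and 19.9 CPM and at 23.7, 31.7, 31.8 and 22.4 CPM (1.57-fold, log2 SE 0.23, edgeR adjusted p = 0.122). Cenpe, a kinesin that attaches chromosomes to the spindle, was at 8.91, 11.8, 9.09 and 15.7 CPM and at 14.1, 18.9, 19.6 and 14.3 CPM (1.42-fold, edgeR adjusted p = 0.124). Foxm1 separated the groups, while control 4 of Cenpe lay inside the injured range. Top2a, the topoisomerase that untangles replicated chromosomes, was at 41.6, 65.3, 29.5 and 52.9 CPM and at 77.8, 103, 104 and 61.1 CPM (log2 0.80, SE 0.31, edgeR adjusted p = 0.142). Mki67, the gene of the Ki-67 antigen that coats mitotic chromosomes, was at 34.2, 46.2, 23.3 and 47.8 CPM and at 51.1, 66.1, 69.9 and 41.6 CPM (log2 0.53, SE 0.24, edgeR adjusted p = 0.188). Injured library 4 of both genes lay within the range of the controls.

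Genes of mitotic exit were closer to 0. Cdc20 and Ube2c, the ubiquitin-conjugating enzyme of the anaphase-promoting complex, had log2 fold changes of 0.26 each (edgeR adjusted p = 0.464 and 0.477). The 8 spindle genes had a median of 0.55, and 6 of them had an unadjusted p under 0.05. Birc5, survivin of the chromosomal passenger complex, was at 21.2, 24.7, 28.2 and 36.7 CPM in controls and at 29.99, 35.2, 31.95 and 32.99 CPM after pneumonia, which overlap (log2 0.18, edgeR adjusted p = 0.622). The remaining members of the mitotic set lay between 0.25 (Aurkb) and 0.69 (Kif11).

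The choice of control libraries moved this comparison. Against TLR3-KO controls 3 and 4 alone, in a fit that drops controls 1 and 2 of both genotypes, 14 members were called (10 S phase, among them all 6 Mcm genes, and 4 mitotic). They were 35% of the members, near the 32.1% of all genes (4108) called in that fit. Against controls 1 and 2 alone 0 were called, and the S phase median was 0.33 in place of 0.67, while the mitotic median was 0.58. TLR3-KO controls 1 to 3 held Xist RNA and the injured libraries did not, so this difference moves with the comparison. With control 4 as the remaining control, whose spread is then assumed to be that of the other groups, 0 were called, 13 S phase and 19 mitotic genes were positive, and the medians were 0.84 and 0.30. Leaving out TLR3-KO control 2 gave 5 called members (Mcm4, Cdc6, Rrm1, Uhrf1 and Bub1), 12.5% of the members beside 9.83% of all genes. The summed neutrophil markers were 63.4 to 93.2 CPM in TLR3-KO controls and 112 to 186 CPM in TLR3-KO injured libraries, and those of 6 dendritic cell markers 7.56 to 11.3 CPM and 5.83 to 6.85 CPM. Shorter and longer genes had medians of -0.14 and 0.12 over all genes tested, against 0.50 and 0.57 over the members. By set these medians were 0.48 and 0.72 for S phase genes and 0.50 and 0.55 for mitotic genes. The part of cell makeup, Xist-bearing controls and transcript length in these values was not tested.

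The third comparison sets TLR3-KO against WT after pneumonia and holds the one member that passed the test. Kif20a was the member that rose, by 2.09-fold (log2 1.06, SE 0.21, edgeR adjusted p = 0.0350), where 0.602% of all genes were called (75 genes). Its levels were 16.1, 13.5, 15.97 and 26.7 CPM in WT injured libraries and 35.4, 46.3, 40.04 and 33.3 CPM in TLR3-KO injured libraries. WT injured library 4 was closest to the TLR3-KO range, and all 4 TLR3-KO values lay above it. Kif20a lies on chromosome 18 from 34624613 to 34633277 (mm10, plus strand), and 1271 bases of its exons overlap those of Cdc23 on the opposite strand. The sources used here do not state the strand setting of the counting, and reads of these genes may be mixed. Cdc23, a subunit of the anaphase-promoting complex, was itself at 25.5 to 32.2 CPM in WT and 33.6 to 41.1 CPM in TLR3-KO injured libraries (log2 0.27, SE 0.11, edgeR adjusted p = 0.258). The call of Kif20a did not hold with the replicate number as a block (adjusted p = 0.0766), nor in 6 of the 8 fits that left out a library (adjusted p 0.0772 to 0.154).

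The other members had positive values with few exceptions. All 24 mitotic genes were positive, with a median of 0.77, and 15 of 16 S phase genes, with a median of 0.67, beside -0.01 over all genes. At an unadjusted p under 0.05, 12 S phase and 23 mitotic genes were higher, where 8.25% of all genes were. The groups did not overlap for 2 S phase genes (Mcm5 and Rrm2) and 19 mitotic genes, all higher in TLR3-KO, where 9.14% of all genes were higher and 3.18% lower without overlap. Without WT injured library 4, 20 members (50%) were called, beside 3.48% of all genes, and DESeq2 called 18 (45%), beside 3.56% of all genes.

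Next to Kif20a in p were Plk1, Cdc20 and Ccnb1. Plk1 was at 11.1, 7.54, 9.35 and 19.3 CPM in WT and at 23.3, 30.7, 28.1 and 22.4 CPM in TLR3-KO injured libraries, a 2.15-fold difference (SE 0.26 on the log2 scale, edgeR adjusted p = 0.0625). Cdc20 was at 19.7, 12.8, 14.1 and 23.1 CPM and at 30.2, 42.2, 35.5 and 30.7 CPM, a 1.94-fold difference (SE 0.22 on the log2 scale, edgeR adjusted p = 0.0630). For both genes all TLR3-KO libraries stood above all WT libraries. Ccnb1 was at 37.3, 22.2, 27.5 and 44.7 CPM and at 57.3, 67.1, 65.2 and 55.7 CPM (1.82-fold, SE 0.20 on the log2 scale, edgeR adjusted p = 0.0655). Its kinase Cdk1, the engine of mitotic entry, was at 31.5, 16.6, 16.3 and 27.6 CPM and at 34.1, 40.9, 37.4 and 35.0 CPM (1.57-fold, edgeR adjusted p = 0.172). Neither Ccnb1 nor Cdk1 overlapped between the genotypes.

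The regulators of the mitotic wave were also higher, without overlap in CPM. Foxm1 was at 14.6, 10.9, 12.9 and 21.5 CPM in WT and 23.7, 31.7, 31.8 and 22.4 CPM in TLR3-KO injured libraries (1.79-fold, edgeR adjusted p = 0.111). The values of library 4 were close, and its TMM factors of 1.005 (WT) and 1.053 (TLR3-KO) would bring them together. Mybl2 was at 11.8, 7.02, 7.68 and 13.2 CPM and at 14.0, 18.2, 17.5 and 13.9 CPM (1.56-fold, edgeR adjusted p = 0.268). Chromosome genes overlapped. Mki67 was at 32.3, 30.03, 39.9 and 43.1 CPM in WT injured libraries, and TLR3-KO injured library 4, at 41.6 CPM, lay inside that range (1.54-fold, edgeR adjusted p = 0.230). Top2a was at 41.7, 34.9, 47.3 and 74.0 CPM, and TLR3-KO injured library 4, at 61.1 CPM, lay below WT injured library 4 (1.71-fold, edgeR adjusted p = 0.245). Birc5 was at 30.7, 13.7, 16.6 and 21.6 CPM in WT and its range met that of TLR3-KO at WT library 1 (1.54-fold, edgeR adjusted p = 0.208).

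Among S phase genes, WT injured libraries 1 and 4 were often the high ones. Uhrf1 was at 23.49, 15.1, 19.9 and 34.2 CPM in WT, and WT library 4 exceeded TLR3-KO library 4 (33.9 CPM). The difference was 1.81-fold (SE 0.23 on the log2 scale, edgeR adjusted p = 0.111). Cdc6 was at 4.73, 3.895, 3.79 and 6.79 CPM (1.58-fold, edgeR adjusted p = 0.146) and Ccne1 at 9.47, 4.72, 6.03 and 7.20 CPM (1.56-fold, edgeR adjusted p = 0.166). Mcm5 was at 36.6, 20.3, 21.4 and 43.8 CPM in WT, below all TLR3-KO injured libraries (1.82-fold, edgeR adjusted p = 0.218). Rrm2 was at most 76.6 CPM in WT and at least 83.6 CPM in TLR3-KO (1.63-fold, edgeR adjusted p = 0.210). Pcna was the S phase gene with a negative value. It was at 204, 151, 145 and 153 CPM in WT and within that range in TLR3-KO (log2 -0.07, edgeR adjusted p = 0.808).

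Marker sums that did not overlap between these groups were those of 10 erythroid genes, at 334 to 712 CPM in WT and 76.5 to 202 CPM in TLR3-KO injured libraries, of 10 epithelial genes, at 84.9 to 117 CPM and 141 to 190 CPM, and of the macrophage genes, at 11740 to 12250 CPM and 13150 to 13560 CPM. Not all markers followed their sum. Of 9 tested epithelial genes 6 had positive and 3 negative log2 values, and of 12 macrophage genes 9 had positive and 3 negative ones. All 8 tested erythroid genes were negative. Neutrophil sums overlapped (81.9 to 276 CPM and 112 to 186 CPM). The part of these cell types in the higher proliferation values was not tested. Transcript length moved with this contrast over the genes tested, with medians of -0.06 for the shorter and 0.04 for the longer genes, whereas the members had 0.74 and 0.70. The sets went in opposite directions, with 0.585 and 0.697 for S phase genes and 0.832 and 0.69 for mitotic genes.

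**Figure D5:**
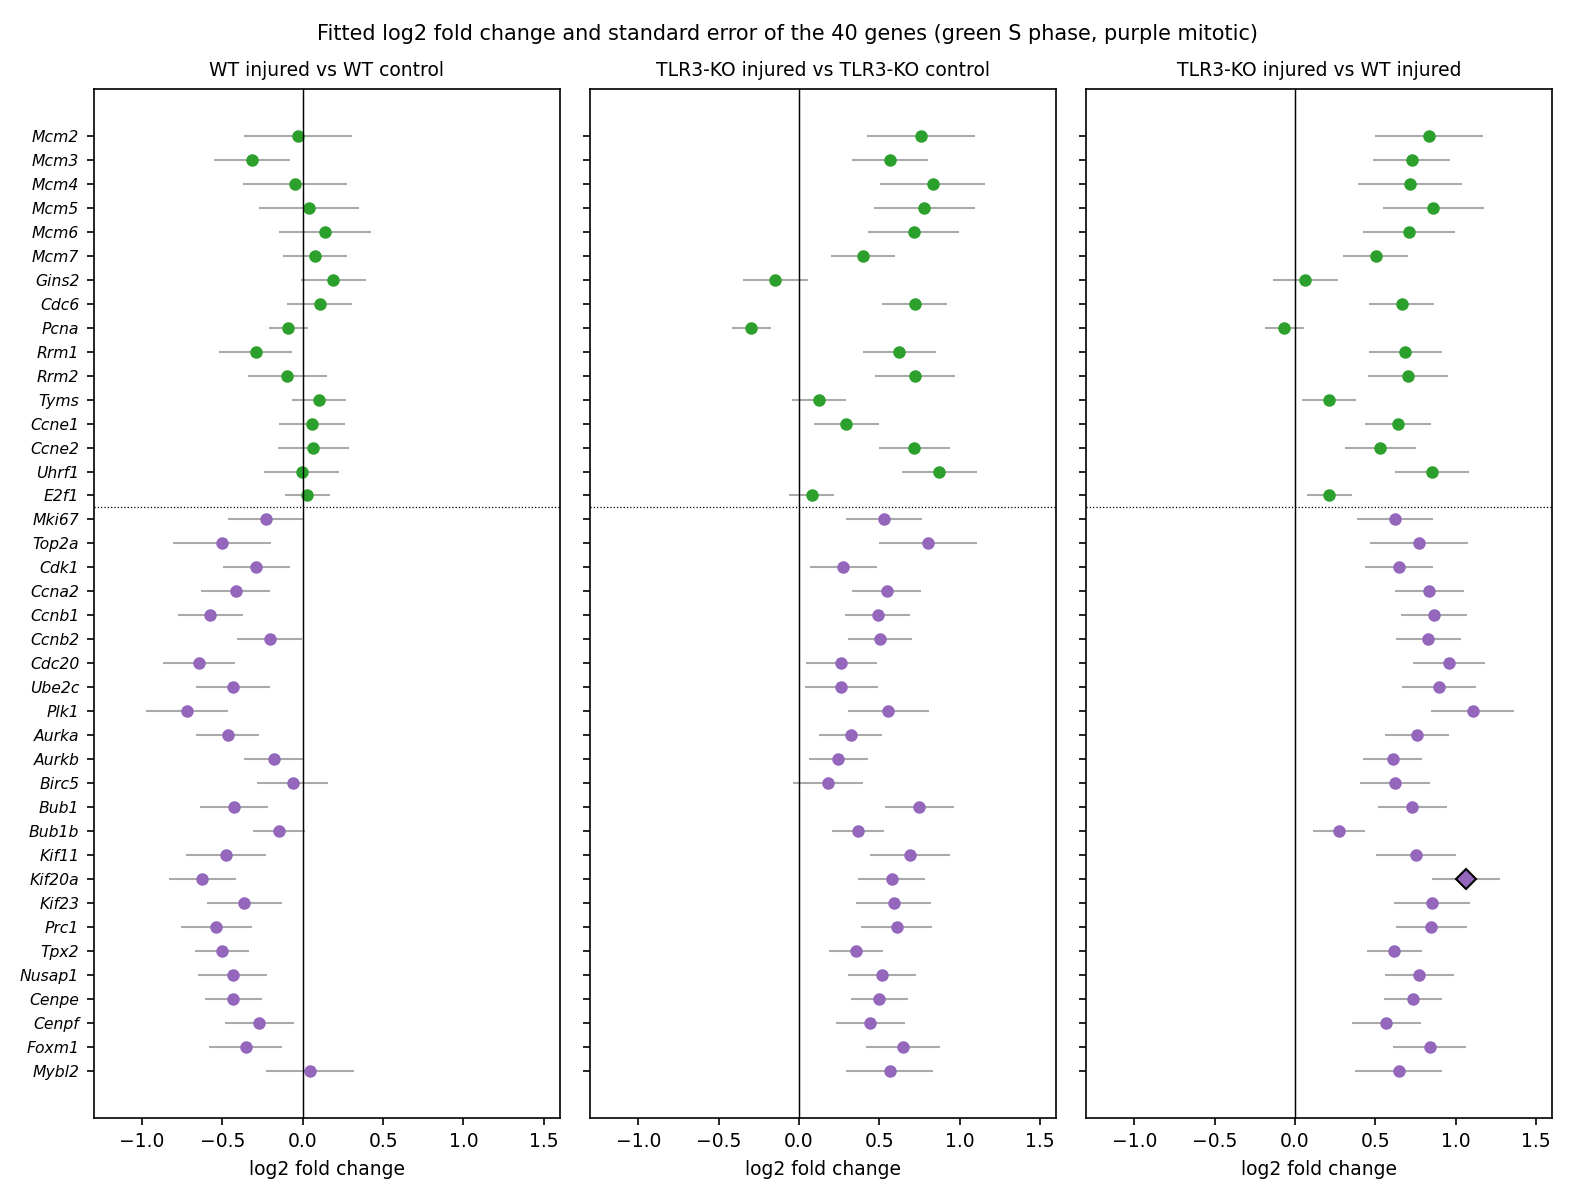
Fitted log2 fold change (x axes) of each member (y axis) in 3 comparisons, with S phase genes in green above the dotted line and mitotic genes in purple below it; lines are 1 SE of the edgeR fit. The diamond with a black edge is Kif20a, at 1.06, the member past the adjusted threshold, and 23 of 24 mitotic genes lie left of 0 in the left panel.

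The fourth comparison asks whether pneumonia acted differently in the genotypes, as the TLR3-KO response minus the WT response. The difference was positive for 24 of 24 mitotic genes, with a median of 0.92, and for 14 of 16 S phase genes, with a median of 0.63, beside -0.03 over all genes. No member passed the adjusted threshold in edgeR, where 0% of all genes were called, and the lowest adjusted p was 0.237. At an unadjusted p under 0.05, 20 mitotic and 5 S phase genes were positive, where 8.57% of all genes were. DESeq2 called 5 members (Ccnb1, Bub1, Kif20a, Prc1 and Cenpe), 12.5% of the members beside 0.787% of all genes, and limma voom called 0. The contrast is built from the comparisons above and shares all their libraries, so it is not a further piece of evidence.

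By gene, the differences came from both arms in the mitotic set. Kif20a had -0.62 in WT and 0.58 in TLR3-KO, a difference of 1.20 (SE 0.29). For Bub1 the values were -0.43 and 0.75, a difference of 1.18 (SE 0.30), and for Ccnb1 -0.57 and 0.49, a difference of 1.06 (SE 0.29). In the S phase set the WT arm was close to 0 for Uhrf1 (-0.01 and 0.87, a difference of 0.88, SE 0.33). Rrm1 (-0.29 and 0.62, a difference of 0.92, SE 0.32) and Mcm3 (-0.31 and 0.57, a difference of 0.88, SE 0.34) had opposite signs in the arms. Their WT values turned to 0.012 and 0.061 against controls 3 and 4 alone. All 6 had an edgeR adjusted p between 0.237 and 0.242.

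The last comparison sets the genotypes side by side without infection, and here the members did not separate. S phase genes had a median of 0.08 and mitotic genes a median of -0.14, beside 0.04 over all genes. No member was called in edgeR (0.658% of all genes, 82 genes), in DESeq2 or in limma voom, and 0 had an unadjusted p under 0.05, where 19.8% of all genes did. No member separated the groups, where 5.92% of all genes were higher and 2.22% lower without overlap. The lowest p belonged to Bub1, at 19.4, 20.8, 17.0 and 13.5 CPM in WT and 9.29, 17.8, 11.3 and 17.0 CPM in TLR3-KO (log2 -0.45, SE 0.21, edgeR adjusted p = 0.256). Gins2 was at 14.3, 12.04, 18.3 and 20.6 CPM in TLR3-KO against 9.76 to 14.7 CPM in WT (log2 0.40, edgeR adjusted p = 0.280), and Ccne1 had the same log2 value (0.40, edgeR adjusted p = 0.280). Top2a (log2 -0.54, edgeR adjusted p = 0.332), Birc5 (0.38, 0.336) and Pcna (0.14, 0.529) were further from the threshold. The mitotic median was 0.11 when TLR3-KO control 4, the only TLR3-KO control without Xist, stood alone for its group. The sign of this median therefore depends on that choice.

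Within both control groups the helicase genes split by replicate number. All 6 Mcm genes were higher in controls 1 and 2 than in controls 3 and 4 in WT, and again in TLR3-KO. Mcm2 was at 37.7 and 39.9 CPM against 22.6 and 25.5 CPM in WT, and at 44.7 and 48.8 CPM against 17.2 and 25.9 CPM in TLR3-KO. Mcm5 was at 31.4 and 33.1 CPM against 24.6 and 19.9 CPM, and at 38.3 and 43.9 CPM against 17.0 and 25.8 CPM. Beside them, Rrm1, Bub1b and Mybl2 had this order in both genotypes and Gins2 the opposite one. That makes 7 of 16 S phase and 2 of 24 mitotic genes with higher values in controls 1 and 2, where 15.0% of all genes had this order, and 1 S phase gene with lower values, where 30.7% of all genes did. The labels do not say what the numbers stand for.

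Other genes of the pathway were taken from lists set up beside the members. Of 46 further mitotic genes 43 had positive values in TLR3-KO against WT injured libraries, with a median of 0.57, and 1 was called. Kif18b, a kinesin that trims spindle microtubules, was at 3.93, 3.37, 3.70 and 7.24 CPM in WT and 9.55, 11.94, 12.1 and 8.07 CPM in TLR3-KO (2.22-fold, log2 SE 0.24, edgeR adjusted p = 0.0414), so it rose without overlap. The call was lost in 6 of 8 fits that left out a library (adjusted p up to 0.179) and with the replicate block (0.0973). Aspm, a spindle pole protein (log2 0.95), Cdca8 of the passenger complex (0.76) and the kinase Nek2 (1.10) had edgeR adjusted p of 0.0539, 0.0570 and 0.0637. Of 38 further replication genes 33 were positive, with a median of 0.33, and 0 were called. In WT after pneumonia, 40 of the 46 mitotic genes were negative (median -0.30) and 21 of the 38 replication genes were positive (median 0.06), with 0 called. In TLR3-KO the positive values were 39 of 46 (median 0.40) and 32 of 38 (median 0.26), with 0 called. At an unadjusted p under 0.05, 19 and 6 of them were higher, where 12.1% of all genes were. The replication genes with the lowest p there were Hells, a chromatin remodeller (log2 0.82, edgeR adjusted p = 0.0552), and Brca1, a repair factor (0.80, 0.0690).

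Of 42 tested genes that control the cycle, 1 was called between the genotypes after pneumonia, 1 after pneumonia in TLR3-KO, and 0 in the other comparisons. Wee1, the kinase that holds Cdk1 inactive, rose against WT injured libraries (7.37, 6.66, 7.65 and 9.68 CPM against 11.5, 16.1, 18.1 and 12.03 CPM in TLR3-KO, 1.80-fold, log2 SE 0.18, edgeR adjusted p = 0.0417). This call was lost in 6 of 8 fits that left out a library (adjusted p up to 0.191), with the replicate block (0.0894) and with a filter at 5 CPM (0.0516). Btg2, an antiproliferative gene, fell after pneumonia in TLR3-KO, from 115.2, 133, 179 and 170 CPM to 95.6, 88.1, 77.3 and 106 CPM (log2 fold change -0.76, SE 0.13, edgeR adjusted p = 0.0273). This call was lost in 5 of 8 fits that left out a library (adjusted p up to 0.0822), with the replicate block (0.0565) and with TLR3-KO control 4 as the only control (0.0935). In WT, Btg2 was at 94.5 to 132 CPM in controls and 101 to 124 CPM after pneumonia (log2 -0.05, edgeR adjusted p = 0.908). Of 9 genes for growth factor signalling and identity of macrophages, 0 were called in any comparison. Pparg, a nuclear receptor of alveolar macrophages, had the lowest p after pneumonia in both genotypes (log2 -0.31 in WT and -0.38 in TLR3-KO, edgeR adjusted p = 0.396 and 0.105).

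Some members share exons with a gene on the opposite strand, and their counts carry the uncertainty given for Kif20a. The longest of these overlaps in GENCODE M21, beside Kif20a, were Gins2 with Gse1 (2758 bases), Prc1 with Rccd1 (911), Ccne2 with Ints8 (609), Ube2c with Tnnc2 (592) and Ccna2 with Exosc9 (510). Between TLR3-KO and WT injured libraries Exosc9, Ints8 and Elovl1 (a neighbour of Cdc20) had log2 values of 0.05, -0.0044 and 0.02, while Ccna2, Ccne2 and Cdc20 had 0.84, 0.53 and 0.96. Rccd1 had -0.47 beside 0.85 for Prc1, and Gse1 had 0.24 beside 0.06 for Gins2. Oip5, a centromere gene that shares 172 bases with Nusap1, had 0.59 beside 0.77 for Nusap1.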

How the data were processed

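Per the labels' protocols, RNA of lavage macrophages was made into TruSeq mRNA libraries and read as pairs. Per the submitters' processing notes, FastQC 0.11.3, TopHat2 2.0.13, Bowtie2 2.2.1, Cufflinks and Cuffdiff 2.1.1 were used with build mm10. The authors deposited whole-number counts per gene symbol without normalization, from HTSeq by the table's name. The sources used here do not state its version, annotation or strand setting.

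Groups came from the titles. Of 23159 symbols, filterByExpr (minimum count 10) removed 10704. The 12455 others were fitted in edgeR 4.0.16 (R 4.3.3) with TMM scaling (factors 0.9 to 1.07), 1 coefficient per group and robust quasi-likelihood dispersions (biological coefficient of variation 0.238). Benjamini-Hochberg adjustment ran over the 12455 genes, and an adjusted p under 0.05 was called. CPM use raw totals, set means use log2(CPM + 0.5), and an SE is the log2 fold change divided by the square root of F. Overlap between groups was judged on these CPM and not on TMM-scaled levels. Robust dispersions were chosen because they gave the counts of an earlier analysis of the same table. The members, the lists and the tests were chosen with earlier results of these data known. The named genes were 15 members set by name, the 3 S phase and 3 mitotic members with the lowest p in each comparison, and up to 4 genes of each further list. Positions and lengths came from GENCODE M21 (mm10). The fit was tested on simulated data.

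As alternatives, DESeq2 1.42.0, limma (3.58.1) with voom, RLE size factors, other filters, fits of 2 groups, subsets of the controls, leaving out each library, TMM-scaled levels, other promoter windows and the replicate number as a block were run. Same-numbered libraries of the control genotypes deviated together (correlations of 0.60 to 0.63), which comes from the data and not from the labels. Of these 8 libraries 6 correlated best with their own number, so the numbers did not pair them in full.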

Additional observations from a re-analysis of the deposited data

Results flagged for a closer look

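Of 172 groups of 4 libraries tested with Dixon's criterion, 5 held a library that lay far from the other 3, and chance flags about 1 in 20. In WT injured library 1, Gins2 reached 21.5 CPM, while the remaining libraries of the group had 11.7 to 12.2 CPM, and Pcna at 204 CPM against 145 to 153 CPM. Ccne1 in TLR3-KO control 4 was at 11.4 CPM against 7.53 to 7.68 CPM. Ccnb1 in WT control 4 was at 33.7 CPM against 48.0 to 49.8 CPM, and Cenpe in WT injured library 4 at 11.9 CPM against 9.03 to 9.23 CPM. No member had injured libraries all above the controls in one genotype and all below them in the other, which 16 of the genes tested had.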

How the results depend on the processing

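Of 639 values of single genes, 580 kept their direction and their side of the threshold. Of 304 values of counts and set medians, 288 were unchanged counts or medians that moved little, among them small medians that changed sign. The count of called members was the least stable. Between TLR3-KO and WT injured libraries it was 1 (2.5% of the members, beside 0.602% of all genes). It became 18 in DESeq2 (45%, beside 3.56%), 2 in limma voom (5%, beside 0.578%) and 0 with the replicate block. When a library was left out it was 0 to 20 (20 without WT injured library 4, 50% beside 3.48%). After pneumonia in TLR3-KO it was 0, and it became 4 in DESeq2 (10% of the members, beside 8.28% of all genes). Against controls 3 and 4 alone it was 14 (35%, beside 32.1%). When a library was left out it was 0 to 5 (5 without TLR3-KO control 2, 12.5% beside 9.83%). In WT it was 0, and 4 against controls 1 and 2 alone (Top2a, Ccnb1, Plk1, Tpx2), 10% of the members beside 12.9% of all genes. For the difference of the responses it was 0, and 5 in DESeq2 (12.5% of the members, beside 0.787% of all genes). The S phase median after pneumonia in TLR3-KO moved from 0.67 to 0.33 against controls 1 and 2 alone. In WT after pneumonia, Mcm3 reversed to 0.061 and Rrm1 to 0.012 against controls 3 and 4 alone, and Gins2 ran from -0.081 (reversed, without WT injured library 1) to 0.31 when a library was left out. The cause was not tested. Small medians changed sign within the spread of the libraries: the S phase median in WT lay between -0.11 and 0.15 over the fits with a library left out.

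The replicate block changed no other call of a member, but Kif18b, Wee1 and Btg2 lost theirs with it and in the fits of 2 groups (adjusted p 0.0544 to 0.0624 there). These checks of the 3 genes were added after seeing the data. Same-numbered libraries correlated at 0.60 to 0.63 between control genotypes, at -0.14 to 0.39 after pneumonia in TLR3-KO, at -0.36 to -0.13 in WT and at -0.49 to 0.12 between injured genotypes. All genes called by the fit with non-robust dispersions, which was added after seeing the data, were 2, 192, 87, 77 and 0 in the order WT, TLR3-KO, controls, injured and difference, against 0, 136, 82, 75 and 0. It called the same single member, Kif20a. With 4 libraries a group and 141 or more counts per member and library, spread between libraries limits these comparisons more than counting error.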
